A study of Mus musculus with 2 samples.

Results

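The genes described here encode carriers of glucose and other sugars, amino acids and lactate. They were taken as every row of the deposited table whose symbol belongs to solute carrier family Slc1, Slc2, Slc3, Slc5, Slc7, Slc16 or Slc38, which gave 72 of 38972 gene rows. RNA had been sequenced from mouse lung cells isolated as fibroblasts, in 1 library per genotype. The control library came from Foxf1fl/fl littermates, which carry the floxed alleles without Cre. The knockout library came from αSMA-Cre-ERT2/Foxf1fl/fl mice (myoFoxf1 KO), in which tamoxifen activates a Cre recombinase under the smooth muscle actin promoter to delete Foxf1, a forkhead transcription factor gene of the lung mesenchyme. Both groups were on the C57Bl/6 background. Bleomycin, which injures and scars the lung, was given weekly into the trachea, per the protocol of the series, at 1 or 2 U/kg over 2 to 4 weeks, and tamoxifen at 40 mg/kg on days 2 to 4. The labels do not say which course these cells had, how many animals were pooled, their age, or how the cells were isolated. The control label names bleomycin and the knockout label does not, so whether the knockout mice received it is not certain.

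Glucose enters cells down its gradient through the Slc2 (GLUT) carriers or together with sodium through some Slc5 carriers. The lactate made by glycolysis leaves with a proton through the monocarboxylate carriers of the Slc16 family. Amino acids use several families. The Slc7 light chains exchange amino acids across the membrane after pairing with a heavy chain of the Slc3 family, and Slc1 and Slc38 carriers use the sodium gradient to take up glutamate, glutamine and small neutral amino acids. In activated macrophages and in proliferating or matrix-producing fibroblasts, these carriers supply glycolysis, glutathione synthesis, arginine metabolism and protein synthesis.

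Gene-assigned reads totalled 16146160 in the control library and 15122990 in the knockout library. Foxf1 had 158 reads in the control library and 49 in the knockout library, which is a log2 ratio of -1.27 (95% interval -1.77 to -0.81). After removal of the trend of ratios on GC content and transcript length the Foxf1 ratio was -0.83, short of 2-fold. The fibroblast markers described below had a median ratio of -1.21 without that correction. How far the Foxf1 ratio reflects the deletion was not tested. Levels are given as CPM (reads scaled to the TMM-adjusted size of each library) when the libraries are compared, and as deposited FPKM (reads per length of the gene and size of the library) when genes are compared. A gene was measured when it reached 1 CPM in either library and 20 reads in both together. It was called higher or lower in the knockout library when its ratio was 2-fold or more in either direction with an exact 95% interval that left out 1. With 1 library per genotype there is no replicate check, no p-value is given, and the intervals cover counting error only.

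Of the 72 transporter genes 48 were measured. Among them 5 were called higher in the knockout library, against 9.37% of all 14456 measured genes. Another 7 were called lower, against 14.2% of all measured genes. These shares, 10.4% and 14.6% of the measured transporters, were close to those of all genes, so the number of calls does not set the transporters apart. Their median log2 ratio was -0.26, beside 0.01 for all measured genes. The direction of this median depended on rare genes. Among genes of at least 10 CPM the median was 0.29 for 26 transporters, beside 0.14 for all genes. With a correction for GC content and transcript length, described below, the medians were -0.12 and 0.05. The 5 called higher were Slc7a11, Slc7a2, Slc2a5, Slc7a8 and Slc16a10, and the 7 called lower were Slc7a10, Slc38a5, Slc16a11, Slc2a10, Slc2a12, Slc1a4 and Slc16a13. The genes called higher included abundant amino acid carriers, with 4 of the 5 above 50 CPM in both libraries, whereas Slc1a4 at 31.4 CPM was the most abundant of the genes called lower in the control library.

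**Figure D1:**
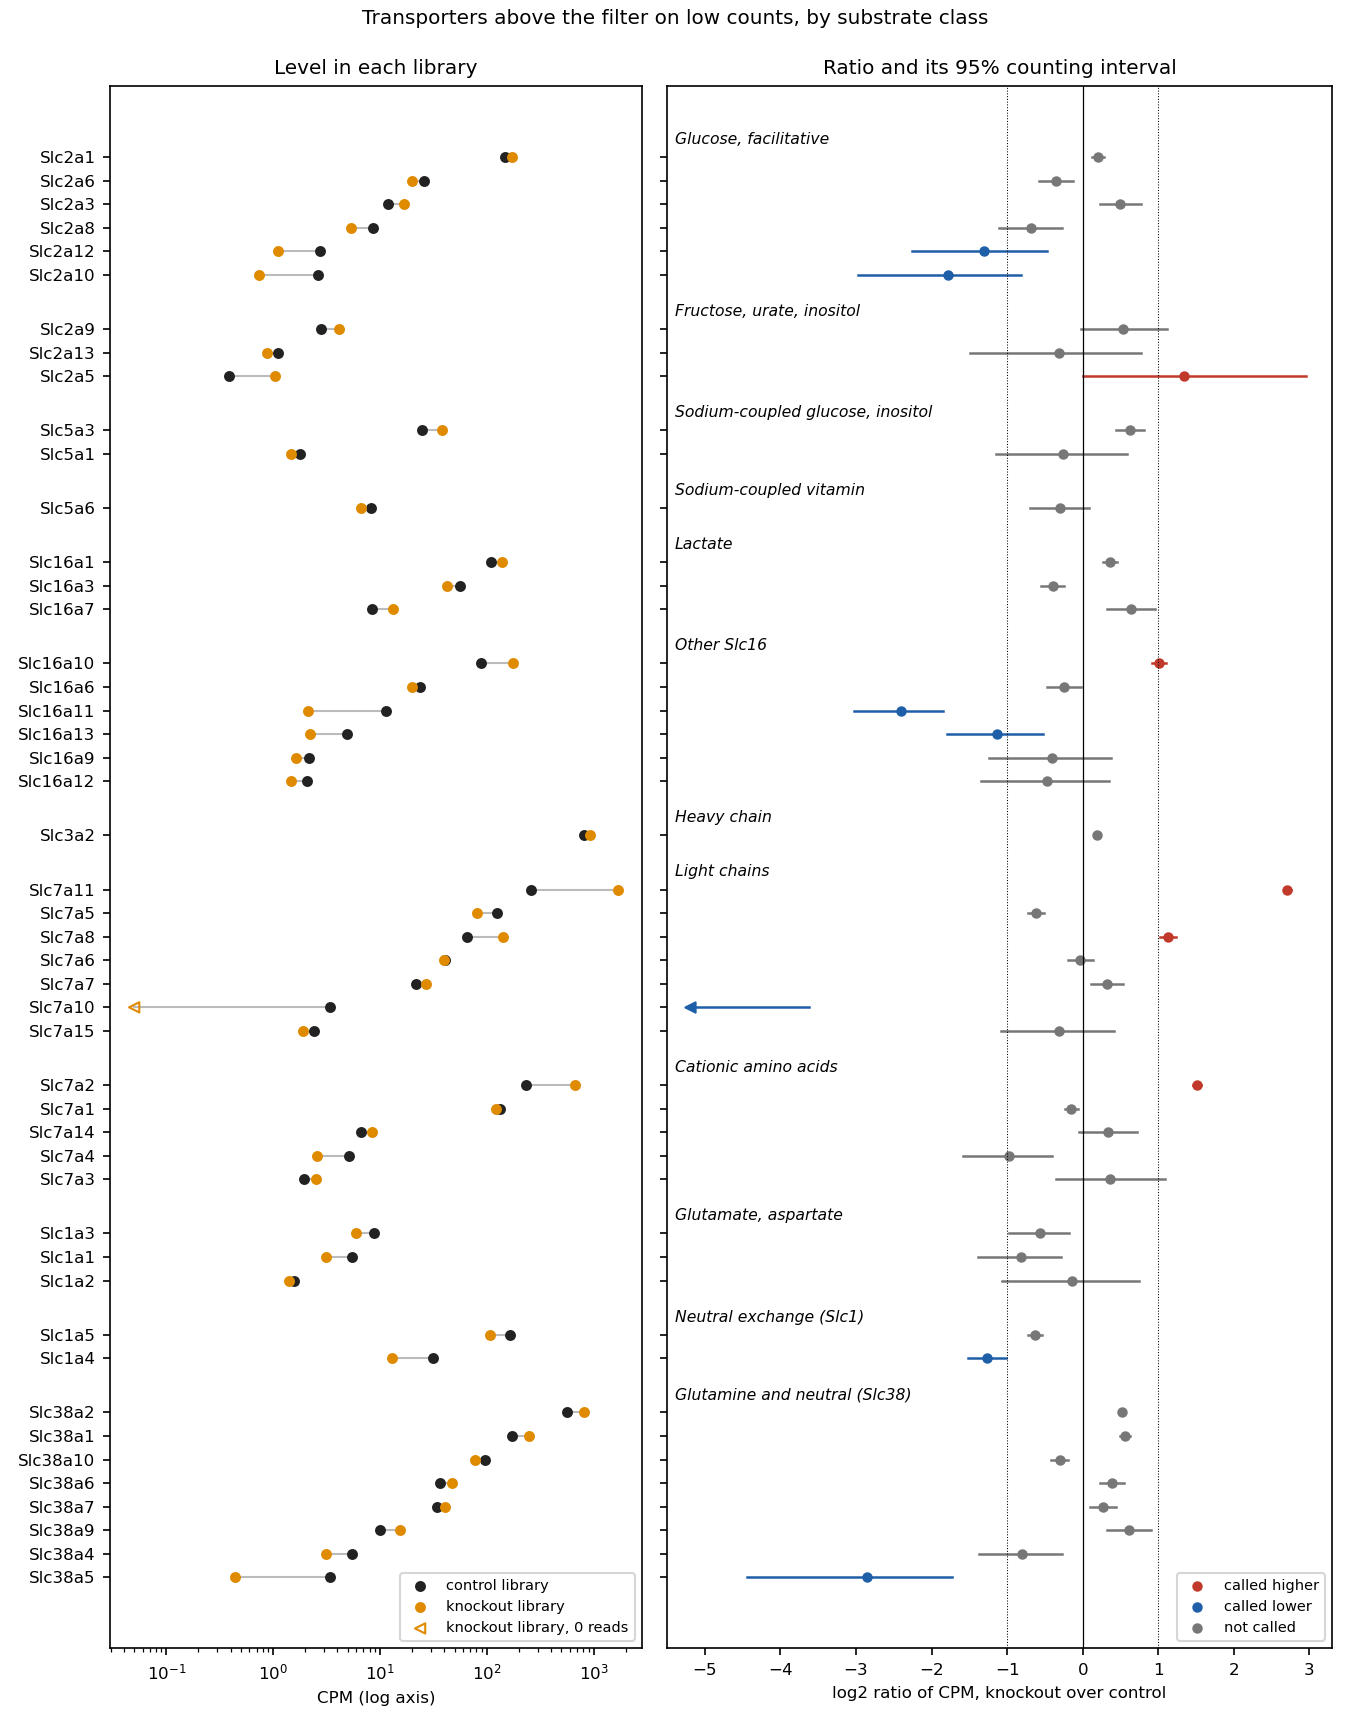
Level in CPM (left, log axis) and log2 ratio of knockout over control with its 95% counting interval (right) for 47 of the 48 measured transporters, by substrate class, with dotted lines at 2-fold. Slc7a11 has the highest ratio at 2.71, and arrowheads mark Slc7a10, which had 0 reads in the knockout library and is drawn at the edge of each panel.

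Slc7a11, the light chain of the cystine and glutamate exchanger xCT, had the highest ratio of all the measured transporters. It had 4641 reads (258 CPM) in the control library and 22820 reads (1683 CPM) in the knockout library. The log2 ratio was 2.71 (95% interval 2.66 to 2.75), or 6.53-fold, and 86 of the 14456 measured genes had a higher ratio. By CPM the gene stood at place 576 among all measured genes in the control library and at place 46 in the knockout library. Cystine brought in by xCT is reduced to cysteine, the limiting amino acid of glutathione, and the exchanger is known to be induced by oxidative stress and by shortage of amino acids. The GC content of its longest transcript was 40.7%, and after removal of the trend of ratios on GC content and transcript length the log2 ratio was 1.91, still called.

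Transcription of Slc7a11 is known to respond to shortage of amino acids through the factor ATF4, which binds amino acid response elements. Promoters of 53 of the 72 transporters, from 250 bases before to 50 bases after the start of transcription, were found in the RefSeq table of GRCm38.p6. The core TGATGNAA, searched on both strands, was present in 3.97% of all 32851 promoters of that length. Among the 65 promoters listed for the transporters it was present in 4, those of Slc7a11, Slc1a4 and Slc7a7. A stretch from each of these genes is shown, 5′ to 3′ on the strand of the gene. Capitals mark the core or its reverse complement.
Slc7a11: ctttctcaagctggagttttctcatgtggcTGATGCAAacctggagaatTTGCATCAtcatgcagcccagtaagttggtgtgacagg
Slc1a4: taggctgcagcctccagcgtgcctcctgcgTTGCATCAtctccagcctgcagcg
Slc7a7: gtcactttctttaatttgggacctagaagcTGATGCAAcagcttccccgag
The Slc7a11 stretch lies at chr3:50443623-50443709 on the minus strand and holds the core in both orientations, beginning 66 and 47 bases before the start. The Slc1a4 stretch lies at chr11:20332694-20332747, also on the minus strand, with the core across the start itself. The Slc7a7 stretch lies at chr14:54417925-54417975 on the minus strand, with the core at the most upstream of 5 listed starts, and another copy spelled TGATGAAA begins 141 bases before that start. Slc7a11 was called higher at 2.71 and Slc1a4 called lower at -1.26, while Slc7a7 was not called at 0.32. The core of the antioxidant response element, searched as TGACNNNGC on both strands, was found in 12.4% of all promoters. Among the 65 promoters of transporters it was found in 6, those of Slc16a1, Slc16a12, Slc38a2, Slc7a1 and Slc7a6, none of which was called. The cores of the 2 elements were searched separately and share their first letters. These matches describe the letters in the windows and do not show binding, and the part of either element in the ratios was not tested.

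The heavy chain that carries xCT and the other light chains to the surface is CD98, encoded by Slc3a2. Slc3a2 was the most abundant transporter by FPKM in both libraries, at 309 in the control library and 282 in the knockout library, and its log2 ratio of CPM was 0.19 (0.15 to 0.22), not called. The 6 light chains known to pair with it summed to 106 FPKM in the control library and 206 in the knockout library. The level of heavy chain over summed light chains was therefore 2.91 in the control and 1.37 in the knockout. Slc7a11 took 24.1% of the summed light chain FPKM in the control and 65.1% in the knockout. Counted as reads, its share was 50.2% (exact 95% interval 49.2 to 51.2) and 85.3% (84.9 to 85.7). These levels and shares are not corrected for GC content. After the GC and length correction the log2 ratio was 0.52 for Slc3a2 and 1.91 for Slc7a11.

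Of the other light chains 1 was called higher, Slc7a8, and 1 lower, Slc7a10. Slc7a5, which encodes LAT1, a carrier of leucine and other large neutral amino acids, had 2247 and 1100 reads (125 and 81.1 CPM) and a ratio of -0.62 (-0.73 to -0.52), not called. Its FPKM was 1.47 times that of Slc7a11 in the control library and 0.146 times in the knockout library. FPKM are not corrected for GC content, which was 56.3% for Slc7a5 and 40.7% for Slc7a11. After the GC and length correction the log2 ratio was -0.11 for Slc7a5 and 1.91 for Slc7a11. Slc7a8, which encodes the related LAT2 known from kidney and gut epithelium, was called higher with 1166 and 1916 reads (64.7 and 141 CPM), a ratio of 1.13 (1.02 to 1.23). Scaled by total reads alone Slc7a8 was at 0.81 and lost its call. Slc7a6 (y+LAT2) had a ratio of -0.03 and Slc7a7 (y+LAT1) of 0.32, neither called. The latter exports arginine and lysine from monocytes and macrophages as well as from gut and kidney epithelium.

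Slc7a10, which encodes the alanine, serine and cysteine carrier Asc-1 known from astrocytes and fat cells, had 62 reads (3.44 CPM) in the control library and 0 in the knockout library. Set against the limit that 0 reads allow, 3 reads or 0.221 CPM, it was at least 15.6-fold lower. Slc7a15, a less studied relative, was not called at -0.31. Slc7a12, Slc7a13 and Slc7a9 had at most 1 read in either library, and Slc3a1, the heavy chain that pairs with Slc7a9 in kidney, had 5 in each.

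**Figure D2:**
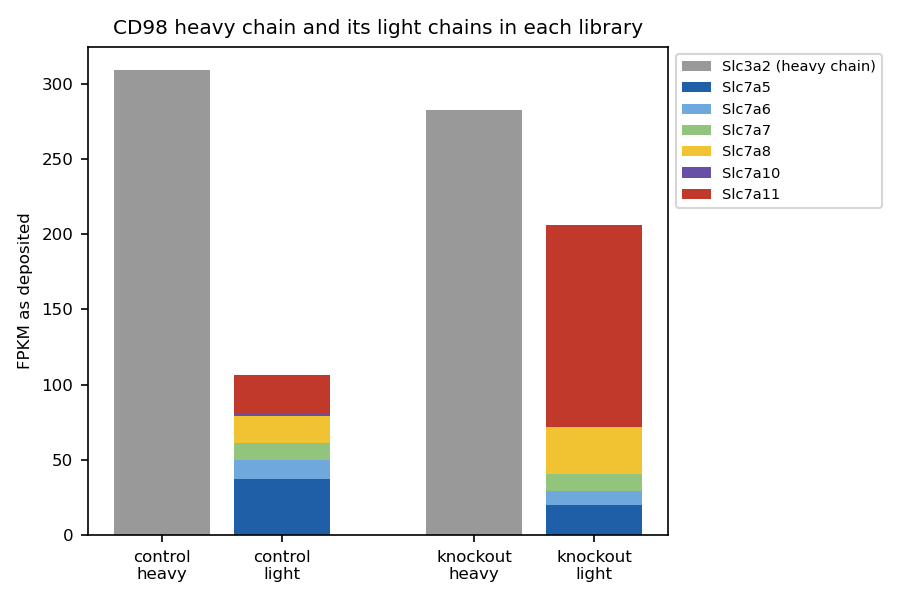
Deposited FPKM of Slc3a2, the CD98 heavy chain, beside the stacked FPKM of its 6 light chains in the control and knockout libraries. The light chain stack is 106 FPKM in the control library and 206 in the knockout library, and most of the knockout stack is Slc7a11 at 134 FPKM.

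Among carriers of arginine and lysine, Slc7a2 was called higher. This gene encodes CAT2, which is induced in activated macrophages, where arginine feeds nitric oxide synthase and arginase. It had 4219 reads (234 CPM) in the control library and 9071 reads (669 CPM) in the knockout library, a ratio of 1.51 (1.46 to 1.57). With the GC and length correction Slc7a2 was at 0.89 and no longer called. Slc7a1, which encodes the widely expressed CAT1, had 2418 and 1642 reads and a ratio of -0.15 (-0.24 to -0.06). The FPKM of Slc7a2 was 1.44 times that of Slc7a1 in the control and 4.55 times in the knockout. The less studied relatives were not called. Slc7a4 was just short of the threshold at -0.98 (-1.59 to -0.41), on 92 and 35 reads, Slc7a14 was at 0.33 and Slc7a3 (CAT3) at 0.36.

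Both sodium-coupled exchangers of neutral amino acids in the Slc1 family were below 0. Slc1a4, which encodes ASCT1, a carrier of serine, alanine and cysteine, was called lower with 565 reads (31.4 CPM) in the control library and 177 reads (13.1 CPM) in the knockout library, a ratio of -1.26 (-1.52 to -1.02). Slc1a5, which encodes the glutamine carrier ASCT2 of proliferating cells, had 2992 and 1452 reads (166 and 107 CPM) and a ratio of -0.63 (-0.72 to -0.54), not called. The GC and length correction left Slc1a4 called at -1.03 and brought Slc1a5 to -0.04. The glutamate carriers Slc1a3, Slc1a1 and Slc1a2, known between them from glia, epithelia and neurons, were measured at 1.40 to 8.88 CPM and none was called. Their ratios were -0.57, -0.82 and -0.15. Slc1a7 had 1 read in all and Slc1a6 none.

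The Slc38 family carried the second most abundant transporter by FPKM in both libraries, Slc38a2. It encodes SNAT2, a glutamine and alanine carrier induced when amino acids are scarce. Slc38a2 had 10220 reads (567 CPM) in the control library and 11005 reads (812 CPM) in the knockout library, a ratio of 0.52 (0.48 to 0.56), not called, and -0.03 after the GC and length correction. Slc38a1 (SNAT1), which lies near it on chromosome 15, had 171 and 251 CPM and a ratio of 0.56. Slc38a5, which encodes the glutamine carrier SNAT5, was called lower, with 61 reads (3.39 CPM) in the control library and 6 reads (0.443 CPM) in the knockout library, a ratio of -2.85 (-4.44 to -1.73). Slc38a4, an imprinted gene of the placenta and liver, had 98 and 42 reads and a ratio of -0.81 (-1.37 to -0.28). Slc38a4 was called lower at -1.29 with the correction and at -1.12 with total reads alone. Slc38a9, a lysosomal arginine sensor of the growth kinase mTORC1, was at 0.61 on 180 and 207 reads, not called. Slc38a6, Slc38a7 and Slc38a10 lay between -0.30 and 0.39 and none was called, and Slc38a3, Slc38a8 and Slc38a11 had at most 6 reads in either library.

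Glucose carriers held 2 genes called lower of 6 measured and none called higher, against 14.2% and 9.37% of all measured genes. Both of the genes called lower were rare. Slc2a1, which encodes GLUT1, the main glucose carrier of proliferating and glycolytic cells, had 2687 and 2322 reads (149 and 171 CPM) and a ratio of 0.20 (0.12 to 0.28). With total reads alone its sign turned, to -0.12. Slc2a1 took 78.0% of the summed FPKM of the 9 facilitative glucose carriers in the control and 83.9% in the knockout. Slc2a3 and Slc2a6, carriers known from leukocytes, had ratios of 0.50 (0.23 to 0.78) and -0.35 (-0.58 to -0.13), neither called. Slc2a8, an intracellular carrier, was at -0.68. After the GC and length correction the signs of Slc2a6 and Slc2a8 turned, to 0.38 and 0.25.

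The 2 genes called lower were Slc2a10 and Slc2a12. Slc2a10, whose loss in humans causes tortuous arteries, had 47 reads (2.61 CPM) in the control library and 10 reads (0.738 CPM) in the knockout library, a ratio of -1.78 (-2.97 to -0.82). Slc2a12, known from heart, skeletal muscle and fat, had 50 and 15 reads (2.78 and 1.11 CPM) and a ratio of -1.30 (-2.27 to -0.47). Slc2a12 overlaps the span of Tbpl1, which had 1185 reads in both libraries together, and the library kit does not mark strand, so reads in any shared part cannot be assigned to either gene. Such overlaps of gene spans with another row were found for 26 of the 72 transporters, among them Slc7a10 (with Lrp3, 67 reads), Slc7a5 (with Gm20388, 617 reads) and Slc7a7 (with Oxa1l, 975 reads). Slc2a4, the insulin-regulated carrier of muscle and fat, had 4 and 6 reads, Slc2a2, the liver carrier, 1 read in all and Slc2a7 none.

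Of the carriers of related sugars, Slc2a5 was called higher on few reads. This fructose carrier had 7 reads (0.389 CPM) in the control library and 14 reads (1.03 CPM) in the knockout library, a ratio of 1.34 whose interval of 0.01 to 2.96 nearly reached 0, and with total reads alone it fell below the filter. The urate carrier gene Slc2a9 (0.54) and the myo-inositol carrier gene Slc2a13 (-0.32) were not called. Slc5a3, which brings in myo-inositol with sodium as an osmolyte, was the most abundant Slc5 gene by CPM, with 447 and 518 reads and a ratio of 0.62 (0.44 to 0.81), or -0.14 after the correction. It shares its genomic span with Mrps6, which had 885 reads. Slc5a1, the sodium and glucose carrier SGLT1 of epithelia, had 32 and 20 reads and a ratio of -0.26, and the vitamin carrier gene Slc5a6 had 148 and 90 reads and a ratio of -0.31. The other 8 Slc5 genes were not measured. Slc5a5, the thyroid iodide carrier, had 13 and 2 reads, Slc5a8 had 6 and 0, Slc5a7, the choline carrier of nerve endings, had none, and the remaining 5 had between 1 and 8 reads in all.

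Lactate carriers were not called. Slc16a1, which encodes the widely expressed MCT1, had 1967 and 1901 reads (109 and 140 CPM) and a ratio of 0.36 (0.27 to 0.45). Slc16a3, which encodes MCT4, the lactate exporter of glycolytic cells, had 1007 and 575 reads (55.9 and 42.4 CPM) and a ratio of -0.40 (-0.55 to -0.25). The FPKM of Slc16a1 was 2.35 times that of Slc16a3 in the control and 3.98 times in the knockout. The intervals of the 2 ratios did not overlap, but after the GC and length correction the signs of both turned, to -0.18 for Slc16a1 and 0.10 for Slc16a3. Slc16a7 (MCT2) was at 0.63 and Slc16a8 had 2 and 1 reads.

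Of the other Slc16 genes, Slc16a10 was called higher and the neighbours Slc16a11 and Slc16a13 lower. Slc16a10 encodes TAT1, a carrier of aromatic amino acids, and had 1588 and 2406 reads (88.2 and 177 CPM). Its ratio of 1.01 (0.92 to 1.10) lay at the threshold and was 0.70 after the correction and 0.69 with total reads alone, both short of a call. Slc16a11, known from liver, had 206 reads (11.4 CPM) in the control library and 29 reads (2.14 CPM) in the knockout library, a ratio of -2.40 (-3.03 to -1.85), and -1.25 after the correction for its GC content of 62.3%. Slc16a13 had 88 and 30 reads (4.89 and 2.21 CPM) and a ratio of -1.13 (-1.79 to -0.53), and -0.63 without a call after the correction. These genes lie tail to tail on chromosome 11 in GRCm38, with 371 bases between them (Slc16a11 from 70212752 to 70216417 and Slc16a13 from 70216789 to 70220994), so reads past the end of either could be counted for the other. Slc16a6 (-0.25), Slc16a9 (-0.41) and Slc16a12, a creatine carrier gene (-0.47), were not called. Slc16a4, Slc16a5 and Slc16a14 were not measured, with at most 18 reads in either library.

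The partners and enzymes around the carriers were taken from lists. For comparison, 9.37% of all measured genes were called higher and 14.2% lower, which holds for the lists of cell type markers below too. Of 7 partners and regulators, Arrdc4, an arrestin that drives glucose carriers inside the cell, and Sgk1, a kinase that promotes the surface level of several carriers, were called higher at 1.23 and 1.10. None of the 7 was called lower, but 4 had a ratio below 0, and the list median was -0.17. Bsg, the chaperone that takes MCT1 and MCT4 to the membrane, had 246 and 184 CPM and a ratio of -0.42, not called. Of 18 genes of glycolysis, Hk2, the inducible hexokinase, was called higher at 1.48 and Ldhb, a lactate dehydrogenase subunit, lower at -1.37, with a list median of 0.25. Gapdh, the most abundant in the control library, was at -0.21, and Pkm, the most abundant in the knockout library, at 0.26. After the GC and length correction 6 of the 18 were called higher, against 5.45% of all genes so corrected, and none lower, against 10.8%. The list median was then 0.59.

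Glutathione genes gave 1 call in each direction among 9 measured. Gclm, the regulatory subunit of the rate-limiting enzyme of glutathione synthesis, had 149 and 371 CPM (1.32), and Chac1, which breaks glutathione down, had 36.6 and 12.8 CPM (-1.51). After the correction both were short of a call, at 0.65 and -0.77. Nfe2l2, the gene of the antioxidant factor NRF2 and the most abundant of the list, was at 0.51. The genes of the amino acid response had a median of -0.61. Of these genes 3 of 10 were called lower, against 14.2% of all measured genes, and none higher, against 9.37%. These were Ddit4 (-1.47), Atf5 (-1.17) and Trib3 (-1.11), and Atf4 itself had 721 and 557 CPM (-0.37). After the correction the median was -0.09, the 3 genes were at -0.70, -0.07 and -0.32 without a call, and Cebpb was called higher at 1.42 and Ddit3 lower at -1.09.

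In arginine metabolism Arg2, the mitochondrial arginase, was called higher, with 19.9 and 54.3 CPM (1.45), and Nos3, the endothelial nitric oxide synthase, lower, with 4.27 and 0.664 CPM (-2.63), among 9 measured. Arg1, the arginase of alternatively activated macrophages, had 6.50 and 7.30 CPM (0.17), and Nos2, the inducible synthase, 2.22 and 1.40 CPM (-0.65), neither called. Odc1, the most abundant of this list, was at -0.28. Among 16 genes of glutamine, serine and proline metabolism, Prodh, which degrades proline, was called lower at -1.55. Glul, the most abundant, was at 0.28 and Asns, a standard target of the amino acid response, at -0.12.

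The cells were a mixture by their markers, and the cell that carried each transporter cannot be read from these libraries. Macrophage markers were more abundant in sum than fibroblast markers in both libraries. They summed to 20058 CPM in the control library and 40241 CPM in the knockout library over 22 genes, of which 10 were called higher and none lower, with a median ratio of 0.95. Fibroblast markers summed to 1788 and 824 CPM over 15 genes, of which 10 were called lower and none higher, with a median of -1.21. In bulk RNA fewer cells of a type and less RNA per cell cannot be told apart. Lyz2, the lysozyme gene of macrophages, had 11220 and 24233 CPM and Dcn, a proteoglycan gene of fibroblasts, 427 and 207 CPM. No marker of either list was at 0 in either library.

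Epithelial markers summed to 18533 and 6748 CPM, with 18 of 25 called lower and a median of -1.20. All 9 measured mesothelial markers were called lower (sums 774 and 247 CPM, median -1.75). Endothelial markers summed to 745 and 728 CPM, with 9 of 20 called lower and 1 higher and a median of -0.98. Neutrophil markers summed to 158 and 350 CPM, with 4 of 9 called higher and 1 lower (median 0.92), and Elane was at 0 in the control. Lymphocyte markers summed to 447 and 183 CPM with 2 of 12 higher and 4 lower, and erythroid markers to 1990 and 739 CPM with 4 of 5 lower. Of 5 measured glial markers 3 were called higher, with sums of 100.3 and 89.6 CPM, Gfap at 0 in both libraries and Sox10 at 0 in the control.

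Set beside these markers, the ratio of Slc7a11 was above all 22 macrophage markers, whose highest was 1.51, and Slc7a2 at 1.51 was level with that marker. Slc7a8 and Slc16a10, at 1.13 and 1.01, lay within the macrophage markers, above 16 and 12 of the 22. Slc7a7, Slc2a3 and Slc2a6, known from myeloid cells, had ratios of 0.32, 0.50 and -0.35, all below the macrophage median of 0.95. Of the genes called lower, Slc1a4, Slc2a10, Slc2a12 and Slc16a13 lay within the range of the fibroblast markers, from -2.70 to -0.53, and also within that of the epithelial markers, from -4.39 to -0.16. Slc38a5 at -2.85 was below all 15 fibroblast markers and 24 of the 25 epithelial markers, and its interval of -4.44 to -1.73 reached into both ranges. Slc7a10, with 0 reads in the knockout library, had an interval with its upper end at -3.62, below all fibroblast markers. That upper end lay above the lowest epithelial marker, Krt5 at -4.39. Slc16a11 at -2.40 was also within both ranges, below 14 of the 15 fibroblast markers and 21 of the 25 epithelial markers. These ratios are without the GC and length correction. With it Slc7a11 was at 1.91, just above the highest macrophage marker, C1qa at 1.85. Slc7a2 and Slc16a10 were then at 0.89 and 0.70, below the corrected macrophage median of 1.07. Slc7a8 was above that median at 1.34. Among the genes called lower without the correction, Slc38a5 was at -2.52, Slc2a12 at -1.57 and Slc2a10 at -1.36 with it. Slc16a11 was at -1.25, Slc1a4 at -1.03 and Slc16a13 at -0.63. The corrected medians were -1.15 for the fibroblast markers and -0.93 for the epithelial markers. The part of these cell types in the transporter ratios was not tested.

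**Figure D3:**
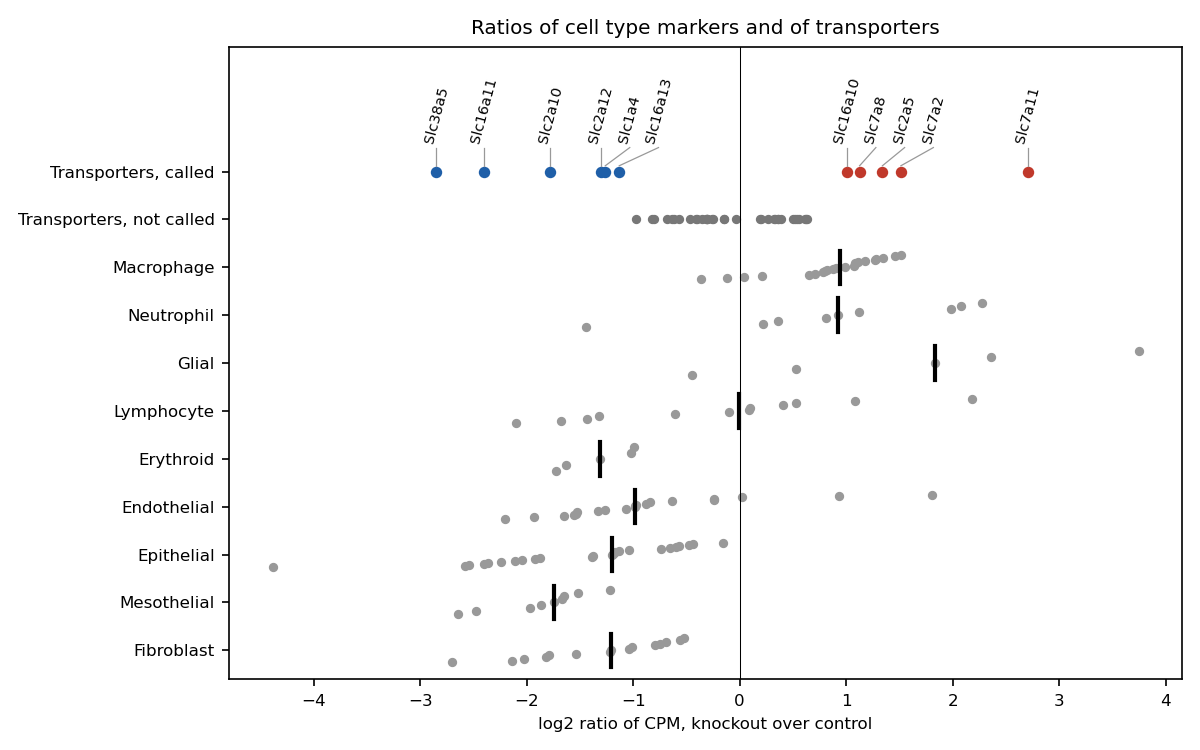
Log2 ratio of CPM, knockout over control, for each measured marker of 9 cell types (grey points, with the list median as a black bar) and for the transporters called or not called. Slc7a11 at 2.71 lies to the right of every macrophage marker, and Slc7a10, with 0 reads in the knockout library, is left out. The ratios are without the GC and length correction.

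Ratios of all genes fell with the GC content of the transcript. In the quintile of measured genes lowest in GC the median ratio was 0.61 and 23.2% were called higher, and in the highest quintile the median was -0.63 and 31.5% were called lower. The transporters called higher had a median GC content of 47.3%, those called lower 55.2% and those not called 48.3%. After the GC and length correction 3 transporters were called higher, against 5.45% of all 14290 genes so corrected, Slc7a11 (1.91), Slc2a5 (1.64) and Slc7a8 (1.34), and 7 lower, against 10.8% of them, of which 6 were among the original 7. The sign of 11 of the 48 ratios turned, those of Slc2a6, Slc2a8, Slc5a3, Slc5a6, Slc7a14, Slc16a1, Slc16a3, Slc16a7, Slc38a2, Slc38a6 and Slc38a10, all of them genes not called.

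**Figure D4:**
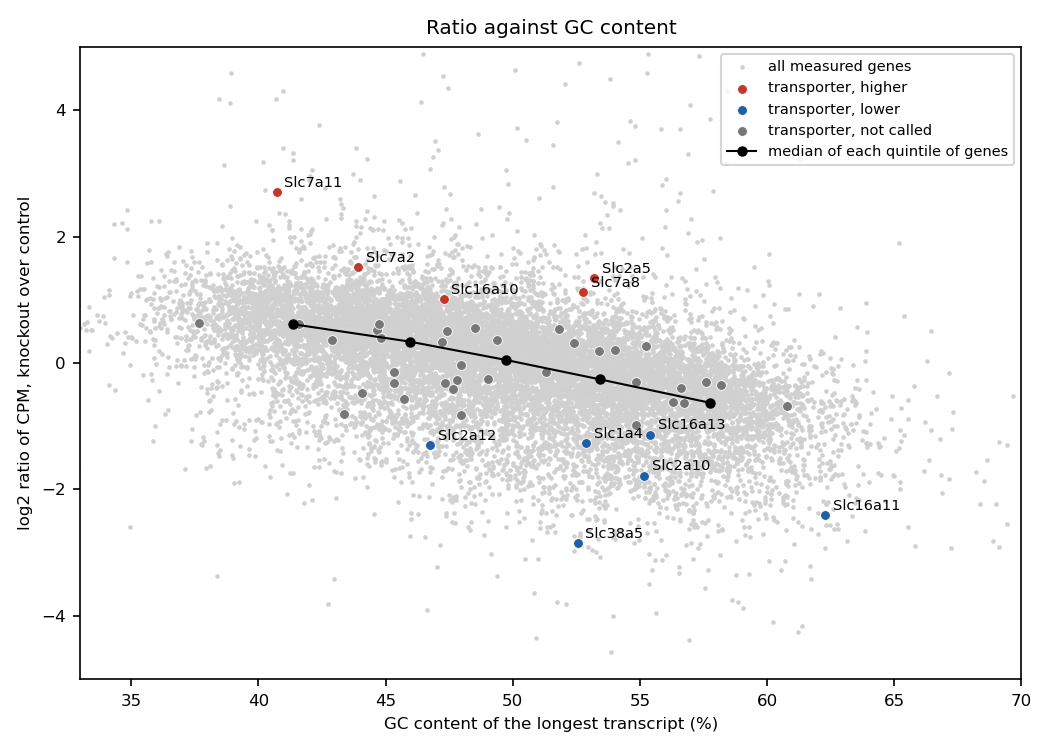
Log2 ratio of CPM, knockout over control, against the GC content of the longest transcript for all measured genes (light grey, genes beyond the axes not shown) and for the transporters, with the median of each quintile of genes as a black line. The medians go from 0.61 to -0.63 as GC content rises, and Slc7a10, with 0 reads in the knockout library, is left out.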

How the data were processed

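The authors deposited 1 table that gives estimated counts and FPKM per gene in each library. TopHat, Cufflinks, GRCm38 and mm10 are named per the submitters' processing notes, with no roles or versions. Since 76.0% (control library) and 73.1% (knockout library) of the deposited estimated counts above 0 were not whole, they were rounded. The deposited FPKM followed the estimated counts at a fixed gene length and total, so they are no independent measurement. The Nextera XT kit was used for the libraries, per the labels' protocols.

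Libraries were scaled with TMM (edgeR 4.0.16, R 4.3.3). The log2 ratio used a prior count of 0.5. Its interval is the exact conditional binomial 95% interval (scipy 1.17.1, Python 3.11.15), and since the reads carry no molecular identifiers it covers counting error only. Against 0 reads a bound used 3 reads. Alternatives were total reads alone, DESeq2 1.42.0 size factors, log2 of FPKM plus 1 or plus 0.1, other filters, fold rules and prior, ratios relative to fibroblast or macrophage markers, and lowess trends on GC content and length (span 0.3, statsmodels 0.14.6; 98.9% of measured genes had values from GENCODE transcripts of GRCm38). Calculations were tested on simulated counts.

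The measured transporters are named, and from enzyme and regulator lists the called and the most abundant genes, except for a few items that are not reported here, and Bsg, Pkm, Atf4, Arg1, Nos2, Asns, Cebpb and Ddit3 were added after their values were seen. The macrophage list had 24 symbols, of which 22 had a row. Members and lists were chosen with earlier results of these data known.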

Additional observations from a re-analysis of the deposited data

How the results depend on the processing

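No paired analysis was possible because each genotype had 1 library. The main counts were 5 transporters called higher and 7 lower, and 1355 and 2047 of all genes. With total reads alone, which moved the median of all genes by -0.31, 2 transporters were higher and 10 lower, with Slc7a4 (-1.29), Slc1a1 (-1.13) and Slc38a4 (-1.12) added to the original 7, and 587 and 3212 of all genes. With log2 of FPKM plus 1, which left 35 transporters measured, 2 were higher and 4 lower (313 and 1593 of all genes), and with FPKM plus 0.1, also with 35, 2 and 7 (502 and 2686). Among genes of at least 10 CPM, 4 transporters were higher and 2 lower (907 and 910 of all genes). The 1.5-fold rule gave 8 and 13 transporters (3195 and 3383 of all genes), the 4-fold rule 1 and 3 (173 and 397), and an interval that excludes 2-fold 3 and 4 (712 and 932). The GC and length correction gave 3 transporters and 779 of all genes higher. Relative to the fibroblast markers 23 transporters were higher and 3 lower (8628 and 208 of all genes), their median was 0.95, and Slc16a13 turned to 0.076. Relative to the macrophage markers 1 was higher and 27 lower (176 and 6774), with a median of -1.20; both shifts follow from adding a constant to every ratio. DESeq2 size factors and a prior count of 2 kept every transporter call, and Slc7a11 was called higher under each alternative listed here. The cause of the other changes was not tested. At this depth a gene with 0 reads could lie up to 0.167 CPM (control library) or 0.221 CPM (knockout library).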
